A study of Homo sapiens with 4 samples.

Results

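The HOXB genes are the 10 protein-coding homeobox genes of the HOXB cluster on human chromosome 17. They were found by their gene identifiers (GENCODE release 29, GRCh38) among the 58174 genes of the deposited tables, and all 10 were present. The study sequenced RNA from 4 libraries of 293FT, a fast-growing human embryonic kidney line with SV40 large T antigen. The tested cells carried mutant NIPBL (NIPBLmut, 2 libraries) and the others wild-type NIPBL (NIPBLwt, 2 libraries). Both genotypes were grown in the same medium with no other treatment in the labels. The kind of mutation, the number of clones, and whether the libraries of a group came from separate cultures are not given there, so p-values measure only the spread between these libraries, which may be technical.

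HOX genes encode transcription factors that bind DNA through a homeodomain and give cells their position along the body axis. In vertebrate embryos the genes of a cluster are switched on in the order in which they lie, low numbers earlier and nearer the head. Retinoic acid, CDX proteins and GDF11 act upstream of that order, trithorax complexes hold active HOX genes on, and polycomb complexes hold silent ones off. NIPBL loads cohesin, the ring complex that extrudes chromatin loops, and the study's title refers to 2 developmental disorders, the CHOPS and Cornelia de Lange syndromes. NIPBL itself was at 61.0 and 62.0 CPM (reads scaled to a common library total) in NIPBLmut libraries, against 41.8 and 44.4 CPM in NIPBLwt libraries, with a log2 fold change of 0.51 (SE 0.11) and an edgeR adjusted p of 0.057. That level does not check the labels, since the mutation is not described.

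The cluster spans chr17:48528526-48729178, or 200.7 kb, with every member on the minus strand. HOXB1 lies at the low-coordinate end and HOXB13 at the other, separated from HOXB9 by a gap of 98.4 kb. HOXB6 and HOXB8 carry the only calls in the cluster. The homeobox of HOXB7, which was not called, lies between theirs, while the annotated span of HOXB7 (chr17:48607227-48633572) contains HOXB8 and HOXB9. The homeobox of HOXB6 is therefore shown beside that of HOXB7, 5′ to 3′ on the minus strand, from GENCODE 29 transcripts (GRCh38). Each has 180 bases, and the capitals mark bases 142 to 159, which encode the conserved stretch of the helix that reads DNA.
HOXB6, chr17:48596473-48596652: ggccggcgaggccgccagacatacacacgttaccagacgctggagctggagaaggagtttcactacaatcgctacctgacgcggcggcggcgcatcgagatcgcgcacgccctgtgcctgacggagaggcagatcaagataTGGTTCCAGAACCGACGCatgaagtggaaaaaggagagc
HOXB7, chr17:48607908-48608087: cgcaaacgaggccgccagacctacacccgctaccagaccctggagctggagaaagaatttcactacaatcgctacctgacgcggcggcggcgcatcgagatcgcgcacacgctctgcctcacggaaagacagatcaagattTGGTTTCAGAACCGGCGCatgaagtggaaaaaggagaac

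The HOXB6 and HOXB7 homeoboxes were the most alike of the cluster, with 160 of 180 bases identical (88.9%). The pairs of the cluster ranged from 51.1% to 88.9%. Reads could be confused only where sequence is identical over their length. The longest identical run between the transcripts was 51 bases for HOXB6 and HOXB7, and the transcripts of HOXB8 shared no run over 27 bases with either. A single coding transcript per gene was compared. Over the 66 pairs, which include the paralogs in other clusters, the longest run was 62 bases. The deposited effective lengths lay 65 bases below the transcript lengths in single-transcript genes, so every run between these transcripts was shorter than that difference. Other transcripts of the genes were not compared. Exons that HOXB3 shares on the same strand with HOXB6 (433 bases) and HOXB4 (159 bases) are longer than that. Similarity of homeoboxes and overlap of exons are different things, and the overlap, which touches HOXB6, is given with its values below.

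Of the 10 members, 9 passed the filter on low counts and 1, HOXB1, had no count in any library. The NIPBLmut libraries had less HOXB6 and HOXB8 RNA than the NIPBLwt libraries, at 0.336 and 0.397 of the NIPBLwt level. With all 4 libraries, no member was called higher by edgeR, DESeq2 or voom. The 2 lower calls among 9 tested members (edgeR quasi-likelihood test, adjusted p under 0.05 over all 18984 tested genes) stand beside 2.1% of all tested genes called lower and 5.81% called in either direction. An unadjusted p under 0.05 was found for 3 members, against 29.8% of all tested genes. The median log2 fold change over the tested members was -0.14, which turned to 0.03 with library totals as the scaling, and the median over all tested genes was -0.01. The groups did not overlap at 6 of the 9 members, close to the 63.2% of all tested genes for which that held.

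**Figure D1:**
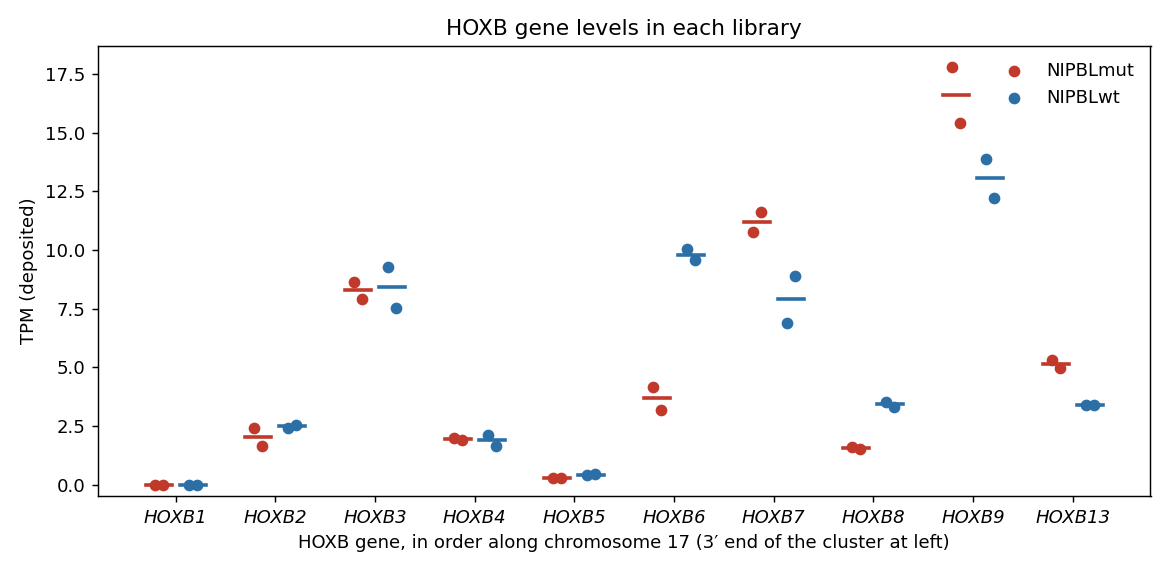
TPM of each HOXB gene in each library, in order along chromosome 17, with NIPBLmut at the left of each pair and short lines at the group means (n = 2 libraries each). HOXB6 and HOXB8 have both NIPBLmut points well below the NIPBLwt points, while HOXB9 is highest in every library and HOXB1 is at 0.

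Levels are compared between genes as TPM, which allows for transcript length, and between groups as TMM-scaled CPM. HOXB9 was the highest member in every library, with 17.8 and 15.4 TPM in NIPBLmut libraries and 13.9 and 12.2 TPM in NIPBLwt libraries. HOXB7 came next in NIPBLmut libraries, at 10.8 and 11.6 TPM, whereas HOXB6 came next in NIPBLwt libraries, at 10.0 and 9.56 TPM. HOXB3 and HOXB7 lay close below HOXB6 in the NIPBLwt libraries and changed order between them. HOXB3 had 9.29 and 7.53 TPM there and HOXB7 6.90 and 8.90 TPM. HOXB6 ranked below HOXB13 in both NIPBLmut libraries and above it in both NIPBLwt libraries. HOXB5 was the lowest member with counts, at 0.27 and 0.27 TPM in NIPBLmut libraries and 0.39 and 0.43 TPM in NIPBLwt libraries.

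The low-numbered members, HOXB1 to HOXB3, act in the hindbrain. HOXB1 (ENSG00000120094), which in mice gives the fourth hindbrain segment its identity, was listed at 0 counts in all 4 libraries. At the depth of these libraries a count of 0 only places it under 3 counts, and this bound covers counting error only. HOXB2 (ENSG00000173917, chr17:48540894-48544989) had 3.99 and 2.73 CPM in NIPBLmut libraries and 4.48 and 5.02 CPM in NIPBLwt libraries. Both NIPBLmut values lay below both NIPBLwt values, but the log2 fold change of -0.50 (SE 0.27) was not called (edgeR adjusted p = 0.27). HOXB3 (ENSG00000120093, chr17:48548870-48604912) had 16.6 and 15.7 CPM in NIPBLmut libraries and 16.4 and 15.3 CPM in NIPBLwt libraries. These groups overlapped, and the log2 fold change of 0.03 (SE 0.13, edgeR adjusted p = 0.903) had the opposite sign on the TPM scale (-0.01) and with effective length offsets (-0.21).

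The middle members, HOXB4 to HOXB8, act in the neck and trunk, and several also act in blood progenitors. HOXB4 (ENSG00000182742, chr17:48575513-48580111), which can expand blood stem cells when it is overexpressed, had 8.46 and 8.10 CPM in NIPBLmut libraries and 9.96 and 8.27 CPM in NIPBLwt libraries. The groups overlapped, and the log2 fold change of -0.14 (SE 0.18, edgeR adjusted p = 0.64) became 0.03 with library totals and 0.04 on the TPM scale. HOXB5 (ENSG00000120075, chr17:48591257-48593961) had few reads, 21 and 21 in NIPBLmut libraries and 31 and 34 in NIPBLwt libraries. Its log2 fold change of -0.80 (SE 0.33) was not called (edgeR adjusted p = 0.175). At these counts it is a low-depth value, although the groups did not overlap.

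HOXB6 (ENSG00000108511, chr17:48595751-48604992) had expected counts of 194 and 153 in NIPBLmut libraries, against 435 and 483 in NIPBLwt libraries. On the CPM scale these were 5.74 and 4.4 in NIPBLmut libraries and 14 and 16.2 in NIPBLwt libraries. The highest NIPBLmut value was thus less than the lowest NIPBLwt value, and the gap between the groups was wider than the spread within either. The mean was 5.07 ± 0.950 CPM in NIPBLmut and 15.1 ± 1.52 CPM in NIPBLwt libraries (SD, n = 2 each). This gave a log2 fold change of -1.57 (SE 0.20, edgeR adjusted p = 0.0294). HOXB6 was called in each other analysis set out in the methods that kept all 4 libraries. Its values were -1.95 to -1.21 over the 15 other analyses, and -1.78 to -1.4 where 1 library was left out. Where all 4 libraries were kept, its adjusted p was 4.28e-07 (DESeq2) to 0.0345 (edgeR with upper-quartile scaling).

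HOXB6 shares 433 exonic bases on the same strand with HOXB3, a gene of 13 annotated transcripts that runs across it. HOXB3 shares 159 such bases with HOXB4. RSEM divides reads that could come from several transcripts, and HOXB3, HOXB4 and HOXB6 had fractional expected counts in all 4 libraries, a sign that reads were divided there. With HOXB3 and HOXB6 counted as 1 gene, an alternative chosen after seeing the data, the summed expected counts were 756 and 699 in NIPBLmut libraries and 944 and 939 in NIPBLwt libraries. That sum had a log2 fold change of -0.54 (SE 0.12) and was not called (edgeR adjusted p = 0.0608, outside the range given above). The effective length of HOXB3 was 1674 and 1722 bases in NIPBLmut libraries and 1372 and 1507 bases in NIPBLwt libraries, and the part of read division in the HOXB6 value was not tested further. HOXB6 also shares 425 exonic bases with the antisense gene HOXB-AS3. The strand setting of the counting is not given in the sources used here, although the library kit keeps strand.

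HOXB7 (ENSG00000260027, chr17:48607227-48633572), whose homeobox lies between those of HOXB6 and HOXB8, had 15.3 and 15.8 CPM in NIPBLmut libraries and 11.2 and 13.4 CPM in NIPBLwt libraries. Both NIPBLmut values lay above both NIPBLwt values. The log2 fold change of 0.34 (SE 0.16) was not called (edgeR adjusted p = 0.213), and it was -0.03 relative to the neighbouring genes.

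HOXB8 (ENSG00000120068, chr17:48611377-48614939), which in mouse bone marrow can hold myeloid progenitors undifferentiated when it is overexpressed, had 87 and 78 reads in NIPBLmut libraries, against 196 and 174 in NIPBLwt libraries. These were 2.57 and 2.24 CPM in NIPBLmut libraries and 6.32 and 5.82 CPM in NIPBLwt libraries. The pairs lay close within each group and far apart between groups. The means were 2.41 ± 0.236 CPM in NIPBLmut and 6.07 ± 0.350 CPM in NIPBLwt libraries (SD, n = 2 each). This gave a log2 fold change of -1.33 (SE 0.22, edgeR adjusted p = 0.0373). The counts of HOXB8 were whole in all 4 libraries and it shares no exonic base with HOXB7 or HOXB9, so the overlap described for HOXB6 does not touch it. Among the alternatives that kept all 4 libraries, HOXB8 was called in all but library totals (-1.17, edgeR adjusted p = 0.0527). Its values over the 15 alternatives were -1.71 to -0.79. It was not called without NIPBLmut replicate 1 (-1.44) or without NIPBLmut replicate 2 (-1.24). Fits without a NIPBLwt library are not counted here, since their spread comes from the close NIPBLmut pair alone. Without a NIPBLmut library the spread comes from the NIPBLwt pair alone, which was the wider, with a chi-square per gene of 42.1 between its libraries against 3.71 between the NIPBLmut libraries.

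The high-numbered members, HOXB9 and HOXB13, act towards the tail end of the axis, and HOXB13 is a marker of the prostate. HOXB9 (ENSG00000170689, chr17:48621159-48626356) had 51.6 and 44.6 CPM in NIPBLmut libraries and 45 and 41.3 CPM in NIPBLwt libraries. The groups overlapped and the log2 fold change of 0.16 (SE 0.13, edgeR adjusted p = 0.462) became -0.22 relative to the neighbouring genes. HOXB13 (ENSG00000159184, chr17:48724763-48729178) had 700 and 674 reads in NIPBLmut libraries, against 461 and 461 in NIPBLwt libraries. On the CPM scale these were 20.7 and 19.4 in NIPBLmut libraries and 14.9 and 15.4 in NIPBLwt libraries. Both NIPBLmut libraries were above both NIPBLwt libraries, with a log2 fold change of 0.40 (SE 0.13), an unadjusted p of 0.0224 and an edgeR adjusted p of 0.112, so HOXB13 was not called.

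Both genotypes had nearly the same summed TPM over the cluster, with a different make-up. The summed TPM of the 10 members was 52.9 and 48.5 in NIPBLmut libraries and 51.9 and 49.5 in NIPBLwt libraries, with means of 50.7 ± 3.15 in NIPBLmut and 50.7 ± 1.7 in NIPBLwt libraries (SD, n = 2 each). HOXB6 and HOXB8 together gave 5.75 and 4.71 TPM in NIPBLmut libraries and 13.5 and 12.9 TPM in NIPBLwt libraries. The other 8 members gave 47.2 and 43.8 TPM in NIPBLmut libraries and 38.4 and 36.6 TPM in NIPBLwt libraries. HOXB6 and HOXB8 were set apart here because they were called, so these sums describe the calls and add no test. In bulk RNA, fewer cells that express a gene and less RNA per cell cannot be told apart.

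As shares of summed HOXB TPM, HOXB6 made up 7.86% and 6.58% in NIPBLmut libraries and 19.3% and 19.3% in NIPBLwt libraries. HOXB8 made up 3.0% and 3.14% in NIPBLmut libraries and 6.76% and 6.70% in NIPBLwt libraries. Both shares were therefore lower in each NIPBLmut library than in either NIPBLwt library. In the other direction, HOXB9 made up 33.7% and 31.8% in NIPBLmut libraries and 26.8% and 24.6% in NIPBLwt libraries. HOXB13 made up 10.0% and 10.2% in NIPBLmut libraries and 6.53% and 6.81% in NIPBLwt libraries. Shares of a sum are tied together, so lower HOXB6 and HOXB8 shares leave larger shares to the others by construction. The CPM groups of HOXB9 overlapped, and neither HOXB9 nor HOXB13 was called. The share of HOXB3 was nearly level, at 16.3% and 16.4% in NIPBLmut libraries and 17.9% and 15.2% in NIPBLwt libraries.

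**Figure D2:**
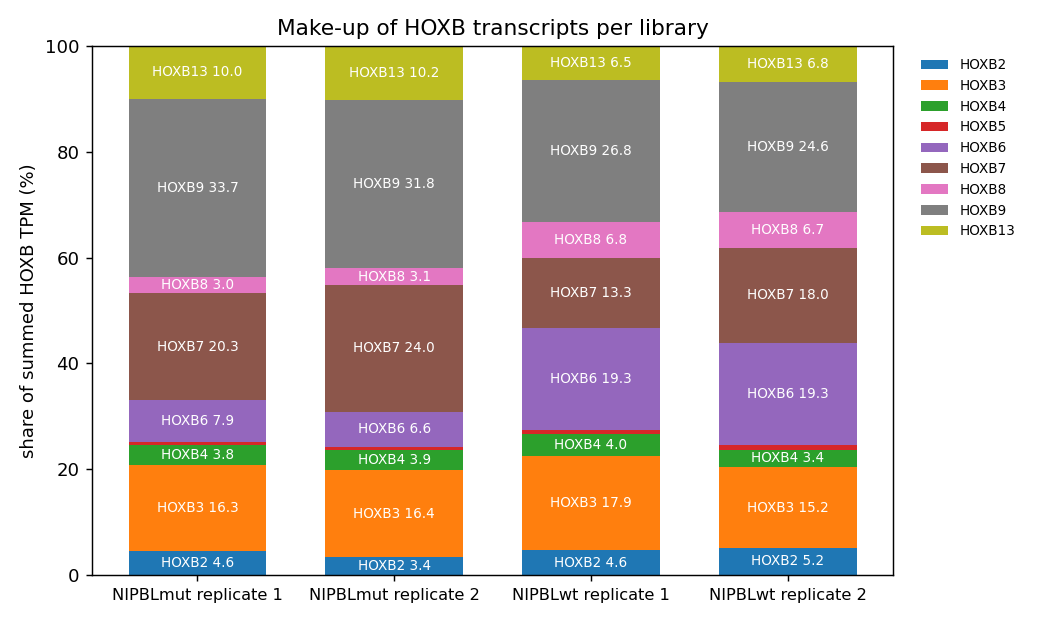
Share of the summed HOXB TPM held by each member in each library, in percent, with the 2 NIPBLmut libraries at the left and the 2 NIPBLwt libraries at the right. HOXB6 takes 7.86% and 6.58% of the NIPBLmut bars and 19.3% of each NIPBLwt bar, and HOXB7, HOXB9 and HOXB13 together take more of the NIPBLmut bars. A smaller part for some members leaves a larger part for the others by construction.

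Ratios of reads within a library do not depend on the scaling between libraries. For each HOXB7 read there were 0.376 and 0.278 HOXB6 reads in NIPBLmut libraries and 1.26 and 1.21 in NIPBLwt libraries. For each HOXB9 read there were 0.0499 and 0.0503 HOXB8 reads in NIPBLmut libraries and 0.140 and 0.141 in NIPBLwt libraries. Neither ratio overlapped between genotypes. HOXB6 and HOXB8 were again taken because they were called, so these ratios describe the calls and are given with no test. The ratio of HOXB6 to HOXB8 reads, in contrast, was 2.23 and 1.96 in NIPBLmut libraries and 2.22 and 2.77 in NIPBLwt libraries, and these overlapped.

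The neighbourhood of the cluster was used to ask whether members moved apart from the genes around them. Over the 25 nearest tested protein-coding genes on each side, HOXB members left out, the median log2 fold change was 0.37. With this median as an offset, HOXB6 had -1.95 (SE 0.21, edgeR adjusted p = 0.0256) and HOXB8 -1.71 (SE 0.22, adjusted p = 0.0316). These were again the only members called, beside 0.88% of all tested genes called lower in that fit. HOXB13 had 0.03 (adjusted p = 0.901) and HOXB7 -0.03 (adjusted p = 0.916), so their point values matched those of the neighbourhood. HOXB2, HOXB4 and HOXB5 had -0.87, -0.51 and -1.17 with adjusted p of 0.136, 0.165 and 0.115, and none was called.

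**Figure D3:**
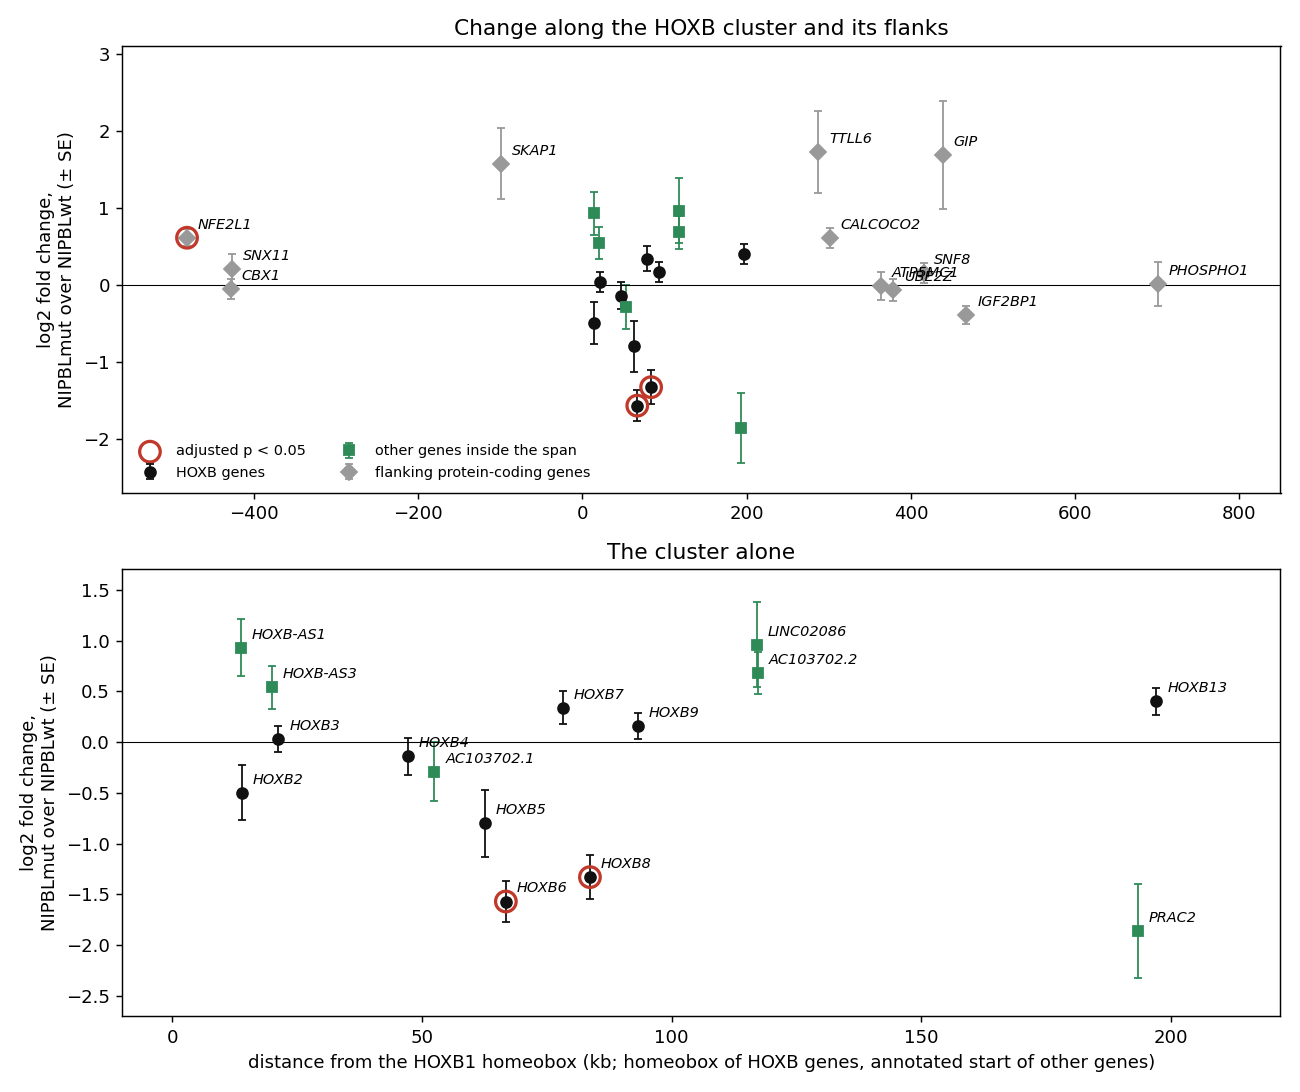
Log2 fold change (NIPBLmut over NIPBLwt, ± SE from edgeR, 2 libraries each) against distance from the HOXB1 homeobox in kb, for the cluster with its flanks (upper panel) and the cluster alone (lower panel). HOXB6 (-1.57) and HOXB8 (-1.33) are ringed as called and HOXB7 (0.34) lies between them; NFE2L1 is the only ringed flanking gene.

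Of the 17 other annotated genes inside the span, 6 passed the filter and none was called by edgeR with the settings of the methods. An unadjusted p under 0.05 was found for 4 of them, beside 29.8% of all tested genes. PRAC2 was called with DESeq2, no filter and the replicate block, and in no other alternative that kept all 4 libraries. Most of the 17 are non-coding. Of the 5 tested non-coding genes, 4 were higher in both NIPBLmut libraries than in either NIPBLwt library, a pattern found for 32.3% of all tested genes. HOXB-AS1, antisense to HOXB2 and HOXB3, had 1.98 and 2.41 CPM in NIPBLmut libraries and 1.16 and 1.14 CPM in NIPBLwt libraries, with a log2 fold change of 0.93 (SE 0.28, edgeR adjusted p = 0.103). HOXB-AS3, antisense to HOXB5 and HOXB6, had 6.63 and 5.40 CPM in NIPBLmut libraries and 4.19 and 4.05 CPM in NIPBLwt libraries. Its log2 fold change of 0.54 (SE 0.21, edgeR adjusted p = 0.16) had the opposite sign to that of HOXB6.

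The intergenic RNAs AC103702.2 and LINC02086, which start between HOXB9 and HOXB13, had log2 fold changes of 0.68 (SE 0.21, edgeR adjusted p = 0.108) and 0.96 (SE 0.42, adjusted p = 0.196). AC103702.1, which shares 482 exonic bases with HOXB4, had -0.29 (adjusted p = 0.545). PRAC2, a small gene next to HOXB13, had 0.325 and 0.575 CPM in NIPBLmut libraries and 2.06 and 1.24 CPM in NIPBLwt libraries. On the log2 scale it differed by -1.86 (SE 0.46, edgeR adjusted p = 0.072), against 0.40 for HOXB13, the nearest HOXB gene. PRAC1 had at most 5 reads in any library and was not tested.

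The cluster also holds the microRNA genes MIR10A and MIR196A1. Their mature products are shown because miR-196 is known to direct cleavage of Hoxb8 mRNA in mouse embryos and HOXB8 is a called member. The sequences are from RefSeq (GRCh38.p14), with the seed, bases 2 to 8, in capitals.
miR-196a-5p (MIR196A1, chr17:48632532-48632553, minus strand): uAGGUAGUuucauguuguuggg
miR-10a-5p (MIR10A, chr17:48579904-48579926, minus strand): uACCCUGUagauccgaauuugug

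The seeds differ, so the pair belong to separate families. The HOXB8 3′ UTR held a window that pairs with miR-196a-5p along its whole length, with 21 Watson-Crick pairs and 1 G:U pair. Capitals mark Watson-Crick pairs and the lower-case g the G:U pair.
HOXB8 window (chr17:48612770-48612791, minus strand): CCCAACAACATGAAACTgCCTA

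For each gene, the window with the most pairs of both kinds was taken from the 3′ UTR of 1 transcript. Among 19501 coding genes, 1, HOXB8, reached its 21 Watson-Crick pairs and its total of pairs. In the other members the window so taken had 8 to 12 Watson-Crick pairs. An exact match to the seed (ACTACCT, on the strand of the mRNA) was present once each in the 3′ UTRs of HOXB1, HOXB6, HOXB7 and HOXB13 and in none of HOXB8, where the G:U pair falls in the seed. That match was present in 5.86% of genes. The match to the miR-10a-5p seed (ACAGGGT) was present once in HOXB3, and in 10.2% of genes. These matches describe sequence. The miRNA hairpins had 0 reads in all 4 libraries, with effective lengths of 45 bases for MIR10A and 5 bases for MIR196A1, and mature miRNAs were not measured.

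Within 500 kb of either end of the cluster there were 16 protein-coding genes, of which 12 passed the filter. Of these 12, 1 was called, beside 5.81% of all tested genes called in either direction. The called gene was NFE2L1, a stress-response transcription factor on the HOXB1 side, with 163 and 170 CPM in NIPBLmut libraries and 110 and 108 CPM in NIPBLwt libraries. On the log2 scale it differed by 0.61 (SE 0.11, edgeR adjusted p = 0.042), and it was not called with the neighbourhood offset or without either NIPBLmut library. Over the flanking genes the median was 0.17 on the log2 scale, with 8 values above 0 and 4 below. Their groups did not overlap at 7 of the 12 genes, 6 of them higher in NIPBLmut libraries, beside 63.2% and 32.3% of all tested genes. No flanking gene was called lower without the offset. With it IGF2BP1, an mRNA-binding protein gene, was the only flanking gene called, at -0.95 (SE 0.12, edgeR adjusted p = 0.0313), against -0.39 (adjusted p = 0.105) without it. Its levels were 127 and 118 CPM in NIPBLmut libraries and 153 and 168 CPM in NIPBLwt libraries.

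The nearest tested genes on the HOXB1 side were SKAP1, SNX11 and CBX1. SKAP1, 98.3 kb away, had 1.75 and 1.75 CPM in NIPBLmut libraries and 0.838 and 0.335 CPM in NIPBLwt libraries, with a log2 fold change of 1.57 (SE 0.46, edgeR adjusted p = 0.101). SNX11 had 0.20 (adjusted p = 0.56) and CBX1, a heterochromatin protein gene, -0.06 (adjusted p = 0.763). On the HOXB13 side, TTLL6, 33.1 kb away, had 4.38 and 3.62 CPM in NIPBLmut libraries and 1.84 and 0.569 CPM in NIPBLwt libraries, with a log2 fold change of 1.72 (SE 0.53, edgeR adjusted p = 0.106). CALCOCO2, an autophagy receptor gene, had 102 and 95.3 CPM in NIPBLmut libraries and 68.9 and 60.0 CPM in NIPBLwt libraries, with 0.61 (SE 0.13, edgeR adjusted p = 0.0535). ATP5MC1 had -0.02 (adjusted p = 0.947). The genes that lie nearest to HOXB1 and HOXB13 on the outside thus had point values above 0, whereas the called members inside had values below 0.

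HOXB6 and HOXB8 were then set beside their paralogs, the genes of the same number in the other clusters, named because of the calls and so after their values were seen. HOXA6 had 2.53 ± 0.277 CPM in NIPBLmut and 7.75 ± 0.345 CPM in NIPBLwt libraries (SD, n = 2 each). The difference of -1.61 on the log2 scale (edgeR adjusted p = 0.0294) stands beside the -1.57 of HOXB6, and HOXA6 was not called without either NIPBLmut library. Shared exons were looked at in the HOXB cluster only. HOXC6 had -1.03 and was not called (adjusted p = 0.11). For HOXB8 (-1.33), HOXD8 had -0.81 (adjusted p = 0.0576) and HOXC8 -0.40 (adjusted p = 0.528), neither of them called. HOXA6 and HOXB6 share 86.7% of homeobox bases and, in the transcripts compared, no identical run over 20 bases.

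The members that were not called are set beside their own paralogs as a description. The median log2 fold change was -0.14 over 9 tested HOXB genes, -0.60 over 11 HOXA genes, -0.49 over 9 HOXC genes and -0.79 over 8 HOXD genes. With library totals these medians were 0.03 for HOXB, -0.42 for HOXA, -0.31 for HOXC and -0.62 for HOXD. With the neighbourhood offset they were -0.51 for HOXB, -0.67 for HOXA, -0.42 for HOXC and -0.27 for HOXD, so the order of the clusters depends on this choice. With all 4 libraries no gene of any cluster was called higher by edgeR or DESeq2. The lower calls by edgeR numbered 2 in HOXB, 2 in HOXA, 1 in HOXC and 2 in HOXD, beside 2.1% of all tested genes. These numbers rest on few libraries. A fit with 1 library left out takes its spread from 1 pair alone, so its calls are not set beside these. The medians in such fits were -0.27 to -0.01 for HOXB and -0.80 to -0.32 for HOXA. They were -0.71 to -0.31 for HOXC and -0.89 to -0.78 for HOXD. With the neighbourhood offset HOXD had 0 lower calls (DESeq2, without the offset, called 4). In group 13, HOXB13 had 0.40 while HOXA13 had -0.05, HOXC13 -0.59 and HOXD13 -0.70, none of them called. In group 9, HOXB9 had 0.16 while HOXA9 had -0.38, HOXC9 -0.49 and HOXD9 -0.61, again without a call. In group 5, HOXB5 had -0.80 and HOXA5 -1.19 (adjusted p = 0.0388), a call that was not made without NIPBLmut replicate 2 or on the TPM scale. The difference between clusters was not tested, since it would treat genes as replicates.

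**Figure D4:**
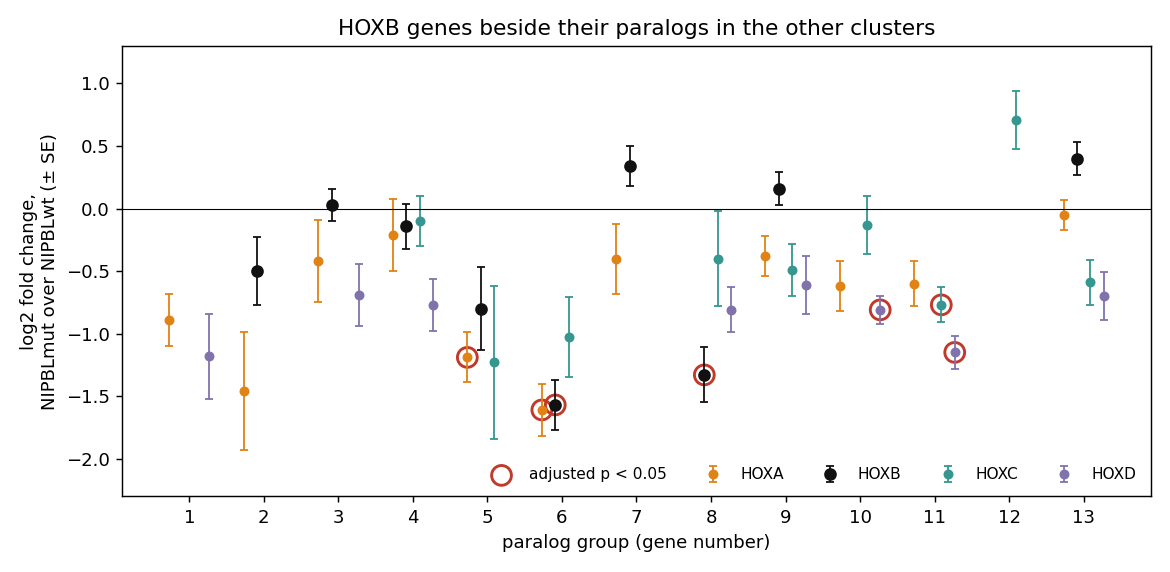
Log2 fold change (NIPBLmut over NIPBLwt, ± SE from edgeR, 2 libraries each) of every tested HOX gene by paralog group, with called genes ringed. HOXB6 (-1.57) lies beside HOXA6 (-1.61), while HOXB7, HOXB9 and HOXB13 have the highest point values of their groups.

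Of the regulators, the retinoic acid pathway had the most calls. Among 18 listed genes 16 were tested, 4 were called higher and none lower, beside 3.71% and 2.1% of all tested genes. An unadjusted p under 0.05 was found for 11, beside 29.8% of all tested genes. The median log2 fold change was 0.68, with 13 values above 0 and 3 below. RDH10, among those 11, was lower (-0.66), and CYP26A1 was nearly level (0.03, edgeR adjusted p = 0.932). Both are named after their values were seen. RARB, a retinoic acid receptor, was at 16.9 ± 2.78 CPM in NIPBLmut and 7.31 ± 0.108 CPM in NIPBLwt libraries (SD, n = 2 each), with a log2 fold change of 1.21 (SE 0.18, edgeR adjusted p = 0.0337). It was not called without NIPBLmut replicate 1. ALDH1A1, a retinaldehyde dehydrogenase, was at 5.89 ± 0.0400 CPM in NIPBLmut and 0.863 ± 0.511 CPM in NIPBLwt libraries, with 2.76 (SE 0.42, edgeR adjusted p = 0.0354).

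The other calls of that list, named after their values were seen, were RXRG, a retinoid X receptor (2.30, edgeR adjusted p = 0.0368), and STRA6, the retinol uptake receptor (2.12, adjusted p = 0.0373). ALDH1A1, RXRG and STRA6 were called in every alternative that kept all 4 libraries. Retinoic acid is best known for inducing the low-numbered HOX genes. Of these, HOXB1 had no reads, and HOXB2, HOXB3 and HOXB4 had log2 fold changes of -0.50, 0.03 and -0.14 and were not called. Retinoic acid itself was not measured, and a link between its pathway genes and the HOXB values was not tested.

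**Figure D5:**
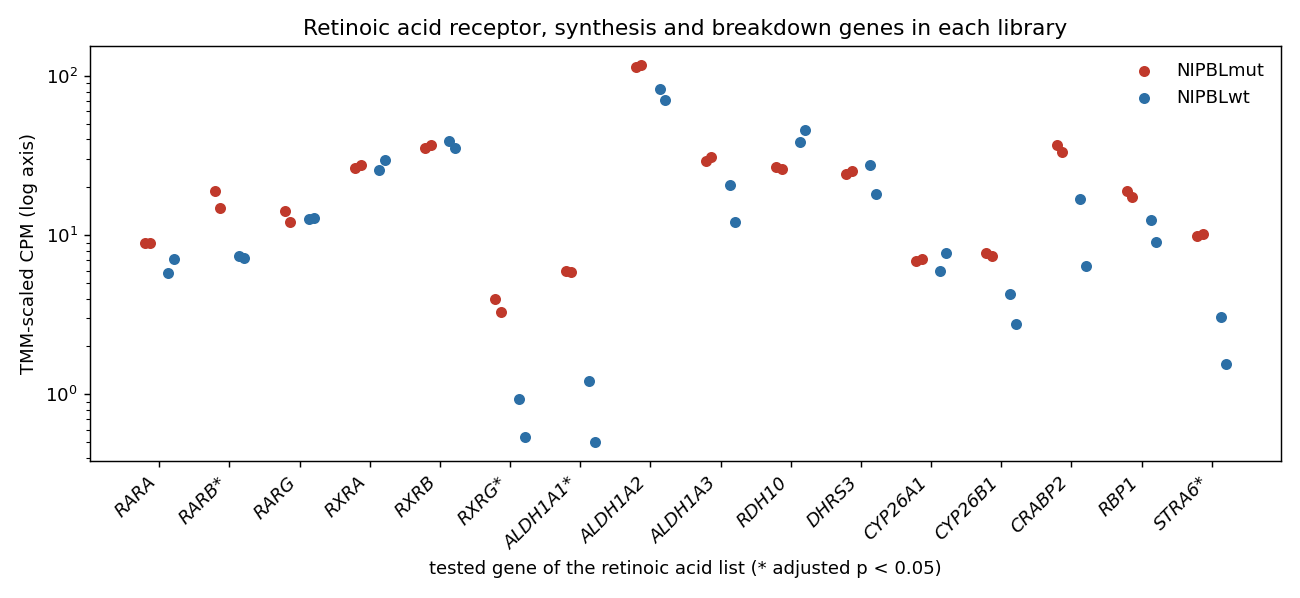
TMM-scaled CPM, on a log axis, of the 16 tested retinoic acid pathway genes in each library (2 libraries per group), with called genes marked by a star. RARB, ALDH1A1, RXRG and STRA6 are starred, and each has both NIPBLmut points above both NIPBLwt points.

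The HOX cofactors of the TALE family, PBX, MEIS and PKNOX proteins that bind DNA with HOX proteins, had no call among 9 tested genes by edgeR, with 2 at an unadjusted p under 0.05 and 1 called by DESeq2. Their median was -0.10, and 0.08 with library totals. MEIS3 had the smallest p, at 33.8 ± 0.352 CPM in NIPBLmut and 16.8 ± 7.17 CPM in NIPBLwt libraries (1.01, edgeR adjusted p = 0.0961). It was called with DESeq2, effective length offsets, the TPM scale and the replicate block, and in no other alternative that kept all 4 libraries. Its log2 fold change was 1.52 without NIPBLwt replicate 1 and 0.63 without NIPBLwt replicate 2. Among 7 tested axial regulators 1 was called, GDF11, beside 5.81% of all tested genes called in either direction. An unadjusted p under 0.05 was found for 4 of them, beside 29.8% of all tested genes. GDF11 is a signal that in mouse embryos turns on high-numbered Hox genes. It was at 22.9 ± 1.12 CPM in NIPBLmut and 35.0 ± 1.79 CPM in NIPBLwt libraries (-0.61, SE 0.12, edgeR adjusted p = 0.0483). GDF11 was not called with effective length offsets, library totals, upper-quartile scaling, the neighbourhood offset or the TPM scale. Nor was it called without either NIPBLmut library. None of 13 trithorax-side genes was called by edgeR, while DESeq2 called 1 and 3 had an unadjusted p under 0.05, and the smallest p was that of PSIP1 (-0.39, adjusted p = 0.0972). Of 19 polycomb-side genes 1 was called by edgeR, beside 5.81% of all tested genes. An unadjusted p under 0.05 was found for 8, beside 29.8% of all tested genes, and DESeq2 called 3 higher and 1 lower. The gene called by edgeR was RING1, a ubiquitin ligase subunit, at 44.7 ± 1.13 CPM in NIPBLmut and 29.5 ± 1.5 CPM in NIPBLwt libraries (0.60, SE 0.11, edgeR adjusted p = 0.0449). It was not called with the neighbourhood offset or without either NIPBLmut library.

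The expressed protein-coding genes whose profile over the 4 libraries lay closest to the mean HOXB profile, among 11168 candidates of at least 5 CPM, were SEMA6A, ZC3H7A and PAX6. The Euclidean distances of their centred log2 CPM were 0.0181, 0.0322 and 0.0330. The mean HOXB profile itself was shallow, at -0.08 and -0.24 in NIPBLmut libraries and 0.15 and 0.17 in NIPBLwt libraries. None of these 3 genes was called.

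The expected counts summed to between 31545743 and 33161120 per library, and 26629 to 28663 genes had a count above 0. Markers of the parental kidney line were present in both genotypes but not at equal levels. Of 10 tested, 1 was called higher and 3 lower, beside 3.71% and 2.1% of all tested genes. Lower calls numbered 1 with the neighbourhood offset and 5 with DESeq2. The median log2 fold change was -0.42, and -0.52 to -0.36 when 1 library was left out. VIM was at 290 ± 7.83 CPM in NIPBLmut and 441 ± 28.6 CPM in NIPBLwt libraries. Its call was not made with library totals, the TPM scale, the neighbourhood offset or the replicate block, nor without either NIPBLmut library. NEFM, a neurofilament, was at 1.08 ± 0.352 CPM in NIPBLmut and 68.3 ± 6.29 CPM in NIPBLwt libraries, and PAX2 was under 1 CPM in both. Markers of other cell types also differed with genotype. Summed fibroblast marker TPM was 8.86 and 9.05 in NIPBLmut libraries and 4.97 and 3.50 in NIPBLwt libraries, with COL1A2 and FAP at 0 in all 4. Of 6 tested fibroblast genes 2 were called higher and 1 lower, beside 3.71% and 2.1% of all tested genes. Summed stratified epithelium marker TPM was 12.0 and 11.0 in NIPBLmut libraries and 5.82 and 3.34 in NIPBLwt libraries, nearly all of it from EPCAM and CDH1, genes of epithelia in general. The defining markers of stratified epithelium were at or near 0, with KRT14 at 0 in all 4 libraries, KRT5 at most at 0.01 TPM and TP63 at most at 0.07 TPM. CDH1 was not called (1.18, edgeR adjusted p = 0.118), and EPCAM, a surface protein, was called higher (1.18, edgeR adjusted p = 0.0361) except without either NIPBLmut library or with the neighbourhood offset. Of the leukocyte markers, CD3E was at 0 in all 4. The part of these differences in the HOXB values was not tested.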

How the data were processed

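RNA was measured in 2 NIPBLmut and 2 NIPBLwt libraries of 293FT cells. Ribosomal RNA was removed before directional library preparation, per the labels' protocols. The tools named are STAR 2.7.3a and RSEM 1.3.1 with the build hg38, per the submitters' processing notes. The annotation release was not given in the sources used here, nor was the strand setting. Per the file headers, the authors deposited expected counts per gene (RSEM estimates, not always whole), effective lengths and TPM, all per library. Of 58174 identifiers, 57836 were matched without version to GENCODE 29.

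Rounded expected counts went into edgeR 4.0.16 (R 4.3.3), with filterByExpr by group, TMM scaling and robust quasi-likelihood tests. Genes were called under a Benjamini-Hochberg adjusted p of 0.05 over 18984 tested genes. CPM are TMM-scaled. Fold changes are NIPBLmut over NIPBLwt, and the SE is the absolute log2 fold change divided by the square root of the test's F. DESeq2 1.42.0 and limma 3.58.1 (voom, and trend on log2(TPM + 1)), other scalings and filters, effective length offsets, a neighbourhood offset, a replicate block and leaving out each library were the alternatives. The members, lists and tests were chosen with earlier results of these data known. Named were all HOXB genes, NIPBL, tested genes inside the span, called or nearest flanking genes, up to 2 called genes per list and direction or else the smallest p, and the closest 3 profiles. Genes named otherwise are said to be so. One marker, with its list's sum, and one homeobox sequence are not reported here.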

Additional observations from a re-analysis of the deposited data

How the results depend on the processing

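HOXB6 kept its direction in all 15 alternatives and its call in each that kept all 4 libraries. None of the 15 changed how reads were divided between HOXB3 and HOXB6. Summed with HOXB3 it was not called (-0.54, edgeR adjusted p = 0.0608). The part of read division in the HOXB6 value was not tested. HOXB8 kept its direction in all 15. With all 4 libraries it kept its call in all but library totals, and it was not called without either NIPBLmut library. The number of HOXB genes called lower was 1 with library totals, against 2. Fits without a NIPBLwt library take their spread from the close NIPBLmut pair alone, so only their log2 fold changes are given. The members named for them were chosen after the results of those fits were seen. Without NIPBLwt replicate 1 these were -0.60 for HOXB2, -0.91 for HOXB5, 0.20 for HOXB9 and 0.36 for HOXB13. Without NIPBLwt replicate 2 they were 0.48 for HOXB7 and 0.43 for HOXB13. The HOXB median was 0.03 with library totals and -0.51 with the neighbourhood offset, and -0.27 to -0.01 without 1 library. Library totals moved the median of all genes to 0.17 and TPM to 0.12. HOXB3 changed sign with effective length offsets (-0.21), on the TPM scale (-0.01), with the neighbourhood offset (-0.34), without NIPBLmut replicate 1 (-0.02) and without NIPBLwt replicate 2 (-0.03), in a range of -0.03 to 0.07 when a library was left out. HOXB4 changed sign with library totals (0.03) and on the TPM scale (0.04), and HOXB7 (-0.03) and HOXB9 (-0.22) with the neighbourhood offset. None of these was called, and the cause was not tested. DESeq2 called 9 retinoic acid genes higher and 1 lower, against 4 and 0. The flanking calls, 1 in the edgeR fit, numbered 3 with DESeq2 and 2 with library totals, TPM, voom or no filter. In a 1 Mb window 6 of 31 tested genes were called, beside 5.81% of all tested genes. The flanking median was -0.27 with the neighbourhood offset, 0.54 with no filter and 0.17 to 0.46 without 1 library. HOXB5 did not pass the stricter filter. Depth limits the low members, with 21 to 34 reads per library for HOXB5, 78 to 196 for HOXB8 and 95 to 150 for HOXB2.

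The libraries share only replicate numbers. Deviations of same-numbered libraries correlated at -0.0926, so no pairing was assumed. With a replicate block HOXB6 had -1.58 (adjusted p = 0.00118) and HOXB8 -1.34 (0.0133), 2 HOXB genes were called lower, 4 flanking genes were called, and calls over all genes rose to 1470 higher and 809 lower, against 704 and 399 without it. Over all genes DESeq2 called 1294 higher and 1206 lower, library totals 1112 and 274, TPM 818 and 119, no filter 1132 and 786, and the neighbourhood offset 443 and 167.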
